A study of Mus musculus with 23 samples.

Results

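The genes described here are 8 mouse genes of the Ly6 and Lynx family, Ly6g6e, Ly6h, Ly6e, Ly6a, Ly6c1, Lynx1, Lypd1 and Lypd6. They were chosen by their symbols in the array annotation, and Ly6g6e was selected on its lower signal in the frontal cortex of mice given chocolate, so that difference is a description and carries no test. All 8 listed genes passed the filter on low signal, each as 1 row of the 31395 rows of the log2 table, and 12 of the 47074 probes behind those rows belonged to them. RNA came from female C57BL/6 mice that were 5 weeks old when the experiments started and were kept on the diets for 8 weeks after a period of habituation. It was hybridized to 1-color Agilent arrays after an 11-day battery of tests. The SC group ate standard chow (the lean group of the labels, mice L52, L54, L56 and L58). The CM group had a free choice of standard chow and a chocolate mixture (the obese group, mice O52, O54, O56 and O58). Each mouse gave 1 array for each of 3 regions, which were FC (frontal cortex), ST (striatum) and HT (hypothalamus). There were 4 arrays per group and region, except 3 for CM in FC, where the array of O52 was not analysed here. The tissue label of the HT arrays reads thalamic region, while the treatment text and the study name the hypothalamus. All 8 mice went through the tests, so no group is without that experience. By the paper, SC mice also received chocolate in the test of limited access. The tests of limited access and of bitter chocolate interrupted the free choice of CM mice, which was restored before tissue was taken.

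Ly6/uPAR proteins share a small disulfide-bonded domain, and most are held on the outer face of the cell membrane by a glycosylphosphatidylinositol (GPI) anchor. Because the fold resembles that of snake neurotoxins, several members bind nicotinic acetylcholine receptors and change how these receptors assemble or respond to acetylcholine. Lynx1 is the best known of these and restrains nicotinic signaling and plasticity in the adult cortex. Ly6h, Ly6g6e, Lypd1 and Lypd6 are further members reported to act on nicotinic receptors, Ly6a and Ly6c1 are surface proteins of brain endothelium and blood cells, and Ly6e is a broadly expressed surface protein linked to the entry of viruses.

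The gene Ly6g6e lies in the class III region of the major histocompatibility complex, where its probe maps to chr17:35215564-35215623 (mm9, plus strand). Lynx1, Ly6e, Ly6a, Ly6c1 and Ly6h form a cluster, and their probes lie within 817 kb of chromosome 15, from 74578434 to 75395727. Lypd1 is on chromosome 1 and Lypd6 on chromosome 2. Ly6h, Ly6c1, Lynx1 and Lypd6 were read by a pair of probes each, which the authors' method averages, and the other genes by 1 probe. Since results for a gene with a pair of probes turn on what each probe reads, the last 30 bases of those for Ly6g6e, Ly6h, Lynx1 and Lypd6 are shown, 5′ to 3′ in the sense of the transcript. Capitals mark AATAAA, the signal for polyadenylation, which was searched on the printed strand alone. It occurred in 1 of the 12 family probes within these 30 bases and in 8.52% of the 47074 kept probes.
Ly6g6e A_51_P491635, chr17:35215594-35215623, plus strand: cttggggaaccataaagagtgtatttaata
Ly6h A_55_P2049282, chr15:75395175-75395204, minus strand: agagaAATAAAgtcacttctgagtcttgtg
Ly6h A_55_P2142334, chr15:75395668-75395697, minus strand: tatctgatggggttcattaactctgggatc
Lynx1 A_51_P128667, chr15:74578434-74578463, minus strand: tgatgcctagcacttcccttggttgtgtct
Lynx1 A_55_P1969497, chr15:74581357-74581386, minus strand: atgtttatggaggaggggtcatcactcaag
Lypd6 A_52_P376169, chr2:50048018-50048047, plus strand: agtttcatcacacagccttaatgaagagtt
Lypd6 A_55_P2087989, chr2:50044299-50044328, plus strand: tgtgtcccgctggaggagtgcttatccaca
Over all 62 pairs of probes of different family genes, the longest run of identical bases was 8. Whether each probe falls in an exon or an untranslated region was not analysed here. Ly6c2, a near-identical neighbor of Ly6c1, has no probe under its own name on the array, so the Ly6c1 signal may include it.

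The signal of all 12 probes was well above background on all 23 arrays, and none was saturated. Each array had between 36432 and 42261 spots well above background. In FC this number separated the diets, with 36432 to 38472 on SC and 41481 to 42261 on CM, and its part in the FC differences was not tested. Several arrays held RNA of a neighboring structure, as judged by marker genes. The FC array of L54 read olfactory bulb genes (Omp at 13.45 on the log2 scale against 7.14 to 7.40 on the other FC arrays), a list chosen after the values were seen. The mean of the frontal cortex marker list (Slc17a7, Tbr1 and others) reached 9.93 and 9.17 on the ST arrays of L54 and L58, against 7.06 to 8.93 on the other ST arrays. The ST array of L52 had the highest hypothalamus list of that region, 10.90, and that of O58 the highest choroid plexus list of all arrays, 13.11. On HT arrays the thalamus list lay between 10.03 and 11.30, against 6.88 to 8.95 in FC and ST. No array of thalamus alone or hypothalamus alone was at hand, so the share of thalamic tissue was not tested. No slide held both diets in FC: the CM arrays were all on slide 3 and the SC arrays on slides 1 and 2. All CM arrays of ST were on slide 1 and those of HT on slide 2. Each region on CM thus had a slide of its own.

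Ly6g6e varied more than any other gene of the family, over 5.55 log2 units across the 23 arrays, while the other 7 spanned between 0.75 and 1.91. In FC of SC mice it read 9.73 (L52), 11.66 (L54), 9.59 (L56) and 10.05 (L58) on the log2 scale. In FC of CM mice it read 8.08 (O54), 8.53 (O56) and 7.95 (O58). The 3 CM arrays lay below all 4 SC arrays, and the highest SC value was on the array of L54 with olfactory bulb genes. The group means were 10.26 ± 0.96 (SD, n = 4) on SC and 8.19 ± 0.30 (SD, n = 3) on CM.

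**Figure D1:**
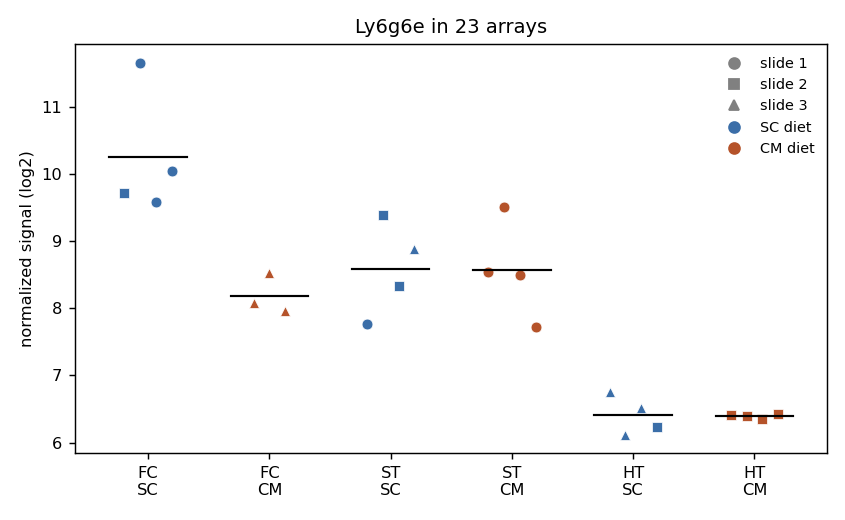
Normalized log2 signal of Ly6g6e (vertical axis) on each of the 23 arrays, by region and diet (horizontal axis). Color gives the diet, the shape of a point its slide, and a bar the group mean. The 3 CM arrays of FC, between 7.95 and 8.53, lie below the 4 SC arrays, between 9.59 and 11.66, while the diets overlap in ST and HT.

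The weighted difference in FC, CM minus SC, was -1.95 on the log2 scale (SE 0.36, 95% interval -2.69 to -1.20), a 3.85-fold lower signal. It was the value that chose the gene, and limma gave it an adjusted p of 0.000583, quoted as a description. It was the fall of rank 11 among all 31395 rows, and of rank 2 among the 44 rows that were differentially expressed (DE), lower on CM and without overlap of the FC groups. In this comparison a row was DE at a 2-fold difference with an adjusted p under 0.01, which 2.94% of all rows reached, and 28.6% had an adjusted p under 0.05. Of the 8 family genes 1 was DE by either rule, Ly6g6e itself. Without the FC array of L54 the difference was -1.53, also a description, since the remaining arrays took part in the choice. With slide as a fixed block it was -2.30 (SE 0.79, adjusted p = 0.530), a fit in which 0 of the 31395 rows were DE in FC, so slide and diet cannot be told apart within FC. In tissue extracts, fewer cells of a type and less RNA per cell cannot be told apart either.

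Markers of other tissues and cells were read on the same FC arrays. Over all rows 15.4% were higher and 13.2% lower on CM in FC at an adjusted p under 0.05. The frontal cortex list lay between 9.87 and 10.78 on SC and between 10.49 and 10.67 on CM, and 0 of its 7 rows were DE by either rule. The striatum list, which marks striatal tissue in the FC dissection, ranged from 8.76 to 11.14 on SC and from 8.78 to 11.05 on CM, with a median difference of -1.08 and 1 of 7 rows lower at an adjusted p under 0.05. Low striatal signal occurred in both groups, on the arrays of L52, O54 and O56, whose Ly6g6e signals were 9.73, 8.08 and 8.53. The oligodendrocyte list had 4 rows lower and 1 higher of 7 at an adjusted p under 0.05, with a median of -0.41 and 0 DE. The astrocyte list had 3 of 6 rows lower and 0 higher (both Gfap rows, at -1.09 and -0.90, and Aldh1l1 at -0.33), and the pericyte list 1 of 7 lower (Abcc9 at -0.82). The microglia and leukocyte list had 2 of 10 rows higher, and its mean separated the diets, at 8.74 to 8.86 on SC and 8.88 to 9.01 on CM. Such separation was not particular to that list. Other Ly6/uPAR genes read 6.35 to 6.49 on SC and 6.53 to 6.56 on CM. Class III neighbors of Ly6g6e read 9.34 to 9.64 and 9.30 to 9.33, and genes for GPI anchors 10.082 to 10.288 and 10.052 to 10.079. The olfactory bulb list, raised on the array of L54 alone, had a median of -1.28 with 1 of 9 rows lower at an adjusted p under 0.05. The part of these tissues in the Ly6g6e difference was not tested.

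The other 7 family genes did not differ between diets in FC beyond the spread of the arrays, and their weighted differences ran from -0.06 for Lynx1 to 0.21 for Lypd6. Their adjusted p values by limma ranged from 0.309 to 0.972, and both diets overlapped for each. Intervals leave room for modest changes: the widest were -0.39 to 0.47 for Lypd1 and -0.17 to 0.58 for Lypd6. The CM values of Ly6e, 13.22, 13.25 and 13.18, lay inside the SC range of 12.91 to 13.43. Over the 8 genes the median size of the difference was 0.05, against 0.23 over all rows. The 8 genes were well above background on every array, which the filter did not ask of all rows. The part of signal level in this comparison was not tested.

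**Figure D2:**
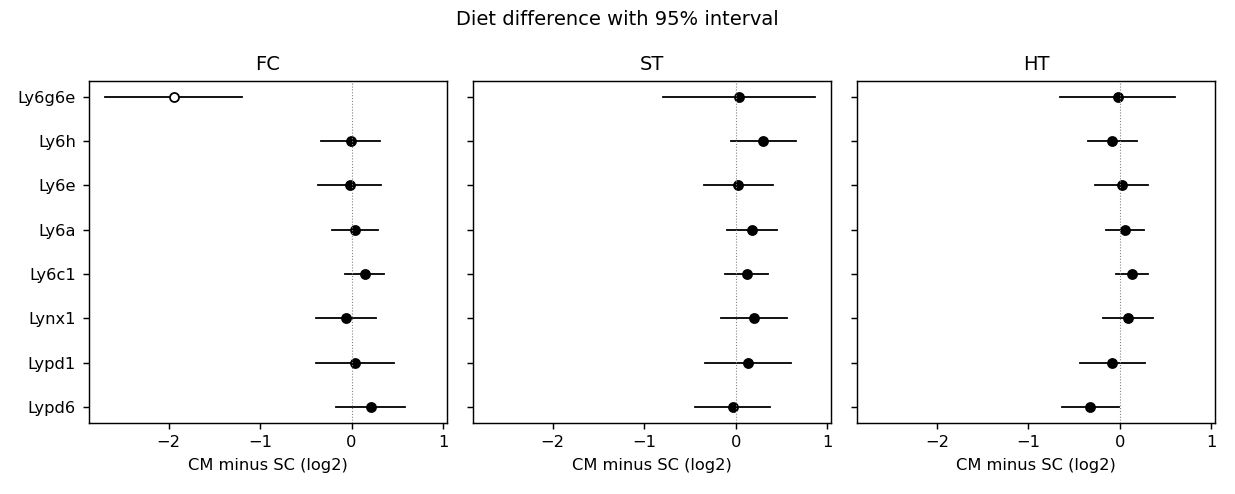
Weighted diet difference, CM minus SC on the log2 scale (horizontal axis), of the 8 family genes in FC, ST and HT, with 95% intervals. The open point, Ly6g6e in FC at -1.95, is the value that chose the gene, and the other 23 points lie between -0.32 and 0.30.

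None of the 8 genes was DE in ST. There 0.602% of all rows were DE at 2-fold with an adjusted p under 0.01, and 9.82% had an adjusted p under 0.05. At an unadjusted p under 0.05 the count over the family was also 0, beside 8006 of the 31395 rows. Ly6g6e read 7.77, 9.39, 8.33 and 8.88 on SC (L52 to L58) and 8.54, 9.51, 8.50 and 7.73 on CM (O52 to O58). The diets overlapped almost fully, with means of 8.59 ± 0.70 and 8.57 ± 0.73 (SD, n = 4 each). Its difference was 0.04 (95% interval -0.79 to 0.86, adjusted p = 0.966 by limma), so changes within that interval, in either direction, are not excluded by these arrays. Slide 1 held the array of L52 and all 4 CM arrays, and within it the difference was 0.80. The ST differences of Ly6g6e contain no FC values, although the FC arrays share in the estimate of the spread behind the interval.

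Ly6h had the largest difference of the family in ST, 0.30 (SE 0.17, adjusted p = 0.278 by limma), and Ly6e the smallest, 0.03 (adjusted p = 0.9498). Both values rested on how the SC arrays of ST were weighed. Ly6e read 12.28 (L52), 12.98 (L54), 12.03 (L56) and 13.53 (L58) on SC against 12.51, 12.66, 12.50 and 12.18 on CM. The SC values thus lay on both sides of the CM values, with the 2 highest on the arrays rich in cortical markers. Without L56 the Ly6e difference was -0.47 (adjusted p = 0.0417), and without the FC array of L54 and the ST arrays of L52, L54, L58 and O58 it was 0.52 (adjusted p = 0.0142). In that reduced set SC is left with L56 alone in ST, assumed to vary like the other groups, and Ly6h gave 0.61 (adjusted p = 0.0472). Neither gene reached a 2-fold difference in any of these fits.

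In HT, 0.178% of all rows were DE, here at 1.5-fold with an adjusted p under 0.05, and 0.430% passed without the limit on fold. None of the family did. Ly6g6e was low and even in this region, at 6.76, 6.12, 6.52 and 6.23 on SC and 6.42, 6.40, 6.36 and 6.43 on CM. Its difference was -0.03 (95% interval -0.65 to 0.60, adjusted p = 0.987 by limma), and 0.17 within slide 2, which held L58 and all 4 CM arrays. Lypd6 was the 1 family gene with an unadjusted p under 0.05, beside 4154 of the 31395 rows. It read 9.25, 9.04, 9.47 and 9.14 on SC and 9.12, 9.10, 9.08 and 8.32 on CM, which gave -0.32 (SE 0.15, adjusted p = 0.359 by limma). The 3 other CM values lay within the SC range, and the low one was O58, without which the difference was -0.18 (adjusted p = 0.502). Within slide 2 it was -0.23. The HT array of O58 also had the highest striatum list of the CM arrays of HT (9.57 against 8.78 to 8.89), and that of L54 the highest on SC (10.43 against 8.94 to 9.22), where Lypd6 read 9.04, the lowest of SC. The part of striatal tissue was not tested.

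Ly6g6e was also the gene with the widest regional range. On SC the HT arrays averaged 6.41 ± 0.29 and the ST arrays 8.59 ± 0.70 (SD, n = 4 each), with no overlap. The HT signal was 4.46-fold lower than in ST (log2 difference -2.16, SE 0.42, adjusted p = 0.000822 by limma). On CM the same comparison gave -2.22 (SE 0.28, adjusted p = 1.3e-06), but there region and slide cannot be told apart. Within slides that held both regions on SC it was -2.62 (slide 2, 2 ST arrays and 1 HT array) and -2.42 (slide 3, 1 and 3). Neither difference contains FC values, although the FC arrays share in the estimate of the spread. The order on SC was FC, ST, HT, with ST below FC by 1.60 and HT below FC by 3.76, both given as a description since the SC arrays of FC took part in the choice. On CM the FC mean of 8.19 was below the ST mean of 8.57, the groups overlapped, and ST minus FC was 0.38 (SE 0.28).

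**Figure D3:**
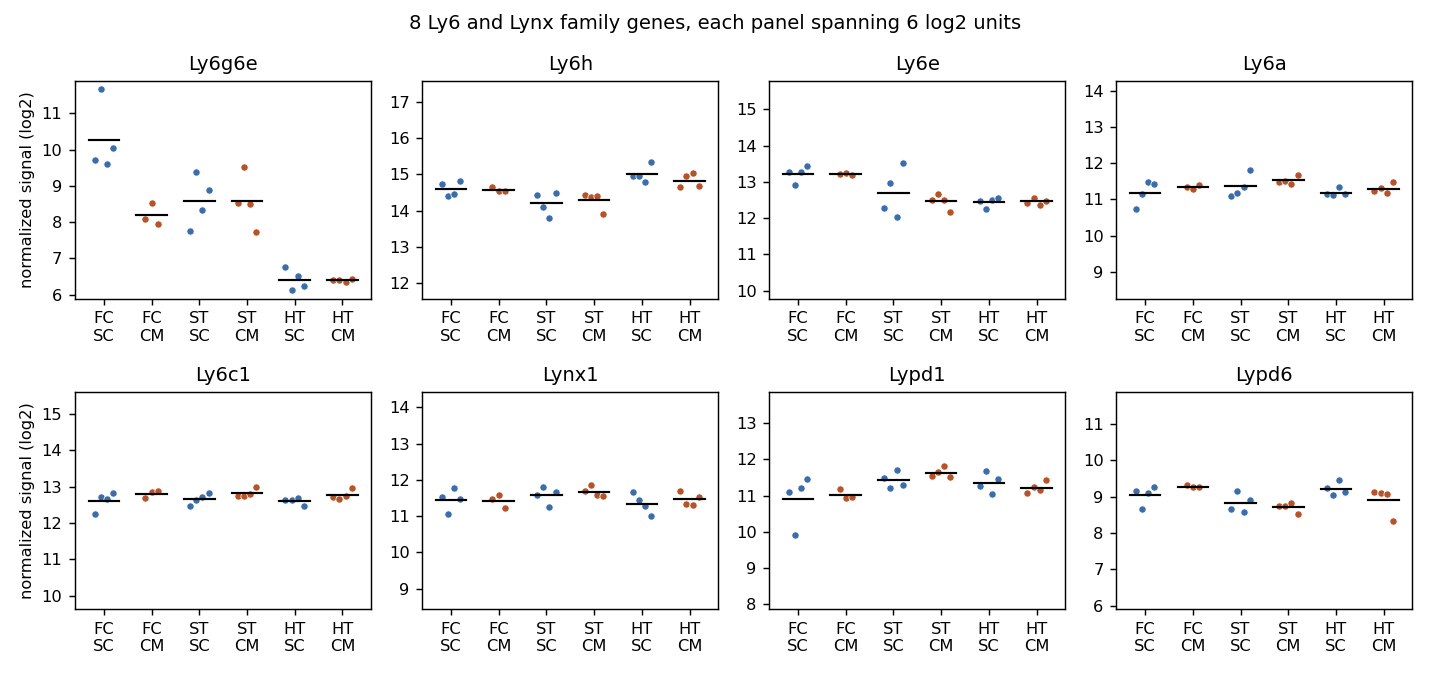
Normalized log2 signal of the 8 family genes (vertical axes, each spanning 6 log2 units) on every array, by region and diet (horizontal axes). Points are arrays and bars are group means. Ly6g6e covers 5.55 log2 units, while Ly6e, Ly6h, Lypd1 and Lypd6 shift by under 1 log2 unit between region means, and Ly6a, Ly6c1 and Lynx1 stay nearly level.

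Within ST, the Ly6g6e signal was set beside the mean of the frontal cortex list on each array. L54 and O54 had the highest Ly6g6e, 9.39 and 9.51, at list means of 9.93 and 8.93. O58 had the lowest of both, 7.73 and 7.06. L52 and L56, at list means of 8.17 and 8.05, read 7.77 and 8.33. The arrays with less cortical signal in ST thus tended to have less Ly6g6e. In FC the highest Ly6g6e was instead on the array with the lowest cortex list, L54 at 9.87. For Ly6e the lowest arrays were L56 and O58 and the highest L58 and L54, and for Lypd6 the lowest was O58 and the highest L54. These genes were picked after their values were seen, as those with the highest Pearson correlations with the list in ST (0.84, 0.73 and 0.94 over 8 arrays), and the other 5 genes ran from -0.40 for Lypd1 to 0.59 for Lynx1. In FC the correlation of Ly6g6e was -0.73 over 7 arrays. This is a description of arrays of both diets, and the part of cortical tissue in the ST values was not tested.

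**Figure D4:**
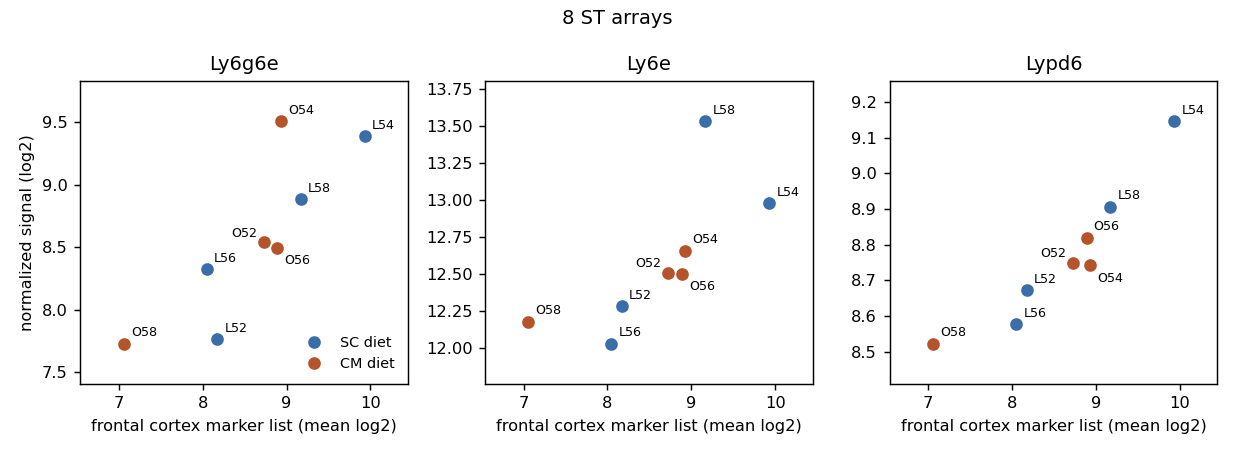
Normalized log2 signal of Ly6g6e, Ly6e and Lypd6 (vertical axes) against the mean log2 signal of the frontal cortex marker list (horizontal axis) on the 8 ST arrays. Points are arrays labeled by mouse and colored by diet. O58, with the lowest list mean of 7.06, has the lowest Ly6g6e and Lypd6, and L54, with the highest of 9.93, lies at or near the top for all 3 genes.

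Ly6e was higher in FC than in the other regions. On SC its FC arrays read 13.28, 12.91, 13.27 and 13.43 and its HT arrays 12.47, 12.27, 12.49 and 12.55, with no overlap. HT minus FC was -0.80 (SE 0.18, adjusted p = 0.00150 by limma), and on CM, where each region had its own slide, -0.76 (adjusted p = 2.34e-05). At an adjusted p under 0.05, 43.2% of all rows differed between HT and FC on SC, and 8.38% by the stricter rule of 2-fold with an adjusted p under 0.01. Of the family 2 genes passed the first, Ly6e and Ly6g6e, and only Ly6g6e the second, as a description. ST minus FC for Ly6e was -0.78 (SE 0.21, adjusted p = 0.0184), but L54 and L58 reached FC levels in ST and the groups overlapped. Without the ST array of L56 it was -0.28 (adjusted p = 0.347), and without that of L52 -0.54 (adjusted p = 0.105). On CM it was -0.74 (adjusted p = 7e-05), with ST and FC again on separate slides. Within slides 1 and 2 ST minus FC on SC was -0.92 and -0.77, and within slide 2 HT minus FC was -0.72. HT minus ST was -0.01 for Ly6e on SC, but -0.51 (adjusted p = 0.0256) without the ST array of L56, and 0.42 (adjusted p = 0.0218) without the 5 arrays named above.

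In the comparison of ST with FC on SC, 14.9% of all rows passed at an adjusted p under 0.05 and 2.09% by the stricter rule. The family had 2 and 0, namely Ly6e and, as a description, Ly6g6e. ST minus FC was -0.55 for Ly6h (SE 0.20, adjusted p = 0.0697) and 0.52 for Lypd1 (SE 0.26, adjusted p = 0.195), neither past the threshold. Both passed without the ST array of L54, at -0.68 (adjusted p = 0.0134) and 0.68 (adjusted p = 0.0474). Without the FC array of L54, where Lypd1 was at its lowest of 9.91, Lypd1 gave 0.25 (adjusted p = 0.468), and without the ST array of L56 0.26 (adjusted p = 0.613). On the CM arrays Lypd1 was higher in ST than in FC by 0.62 (SE 0.16, adjusted p = 0.00256) and Lypd6 was lower (log2 difference -0.54, SE 0.14, adjusted p = 0.00261). Far more rows passed on CM than on SC, 60.6% for ST minus FC, 57.8% for HT minus FC and 56.3% for HT minus ST, beside 3, 4 and 3 of the 8 family genes. On CM each region had its own slide, while the SC regions shared slides. Array weights in FC were 1.78 to 2.74 on CM against 0.31 to 0.97 on SC. The part of slide and weights in these shares was not tested. The difference between the 2 diets in the regional values of Lypd1 and Lypd6 was the interaction term, and it passed for neither gene.

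Ly6h was higher in HT than in ST. On SC it read 14.94, 14.96, 14.79 and 15.34 in HT against 14.42, 14.10, 13.79 and 14.49 in ST, with no overlap. The difference was 0.92 (SE 0.18, 1.89-fold, adjusted p = 0.000966 by limma), and on CM, with the regions on separate slides, 0.54 (adjusted p = 0.000879). Both probes gave it, at 0.83 and 1.01. Within slide 2 it was 1.40 and within slide 3 0.41. At an adjusted p under 0.05, 21.5% of all rows differed between HT and ST, and 4.77% by the stricter rule. In the family Ly6h and Ly6g6e passed the first and Ly6g6e the second. FC lay between the other regions for Ly6h, and HT minus FC was 0.37 (SE 0.17, adjusted p = 0.0930), or 0.48 (adjusted p = 0.0428) without the FC array of L58.

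Lypd6 averaged 9.22 ± 0.18 (HT), 9.06 ± 0.26 (FC) and 8.83 ± 0.25 (ST) on SC (SD, n = 4 each), and no neighbors in that order differed beyond their spread. HT minus ST was 0.51 (SE 0.21, adjusted p = 0.0966 by limma), and 0.66 (adjusted p = 0.0130) without the ST array of L54. HT minus FC was 0.20 on SC (adjusted p = 0.430) and -0.33 on CM (adjusted p = 0.0416), where the regions lay on separate slides. For Lypd1 the order on SC was ST, HT, FC, at 11.42 ± 0.22, 11.36 ± 0.27 and 10.91 ± 0.69, and no pair passed. The averaged Lynx1 row stayed between 10.99 and 11.87 on all arrays, although its probes lay a median of 6.04 log2 units apart. Ly6a stayed between 10.73 and 11.80, and Ly6c1, also an average of probes, between 12.24 and 12.997. Regional differences of Lynx1, Ly6a and Ly6c1 on SC were at most 0.16 in size, with adjusted p values from 0.481 to 0.973.

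Ly6a and Ly6c1 are the endothelial genes of the family, and they varied together across arrays. Each was among the 3 rows most like the other, with a Pearson correlation of 0.78 over the 23 arrays and 0.79 after group means were subtracted. Both were lowest on the FC array of L52, at 10.73 and 12.24. The endothelium list (Cldn5, Pecam1, Flt1 and others) was even, with a mean between 10.003 and 10.29 on every array, and 0 of its 15 rows were DE between diets in any region. At an adjusted p under 0.05 Pecam1 was higher in FC (0.52) and Esam lower in ST (-0.33), beside 28.6% and 9.82% of all rows. The list mean correlated with Ly6a at 0.26 and with Ly6c1 at 0.29 over the 23 arrays. The diet difference of Ly6c1 was positive in each region, 0.14 (FC), 0.12 (ST) and 0.13 (HT), with adjusted p values of 0.309, 0.544 and 0.553. Its intervals reached from -0.07 to 0.35, from -0.11 to 0.35 and from -0.05 to 0.31.

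Diet effects were then compared between regions by the interaction term, at an adjusted p under 0.05. FC minus ST passed for 30.1% of all rows and FC minus HT for 20%. In the family Ly6g6e passed both, at -1.98 (SE 0.54) and -1.92 (SE 0.48), values that hold the FC difference which chose it. ST minus HT passed for 0% of all rows by limma, with 4658 rows and 0 family genes at an unadjusted p under 0.05. For Ly6g6e it was 0.06 (95% interval -0.99 to 1.12). Lypd6 came nearest among the other genes, with FC minus HT at 0.53 (SE 0.24, adjusted p = 0.123).

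The probes of a pair were also fitted singly, and the difference between probes was not tested. Their levels differed, so an averaged row lies between its probes. The median gap was 6.04 log2 units for Lynx1 and 2.13 for Ly6c1. For Ly6h, A_55_P2142334 minus A_55_P2049282 was -2.71. The Lypd6 gap was 3.74, with A_55_P2087989 the dimmer probe (7.06 against 11.06 in FC on SC). For Lypd6, probe A_55_P2087989 gave 0.36 in FC (adjusted p = 0.0801) and -0.41 in HT (adjusted p = 0.133), and its interaction was 0.77 (SE 0.20, 95% interval 0.35 to 1.19, adjusted p = 0.0104 by limma over all probes). Probe A_52_P376169 gave 0.06, -0.24 and 0.30 (SE 0.30, adjusted p = 0.520). Both probes had the same sign in each of the 3 values, and their signals correlated at 0.80 over the 23 arrays. The Lynx1 probes were the least alike, at 0.54. For HT minus FC on SC, Lynx1 probe A_51_P128667 gave -0.33 (SE 0.13, adjusted p = 0.0429) and probe A_55_P1969497 gave 0.01 (SE 0.25, adjusted p = 0.985), beside -0.16 for the averaged row. The diet effect in FC minus that in HT was -0.36 (SE 0.15, adjusted p = 0.106) for the first of these. The pairs of Ly6h and Ly6c1 correlated at 0.89 and 0.91.

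**Figure D5:**
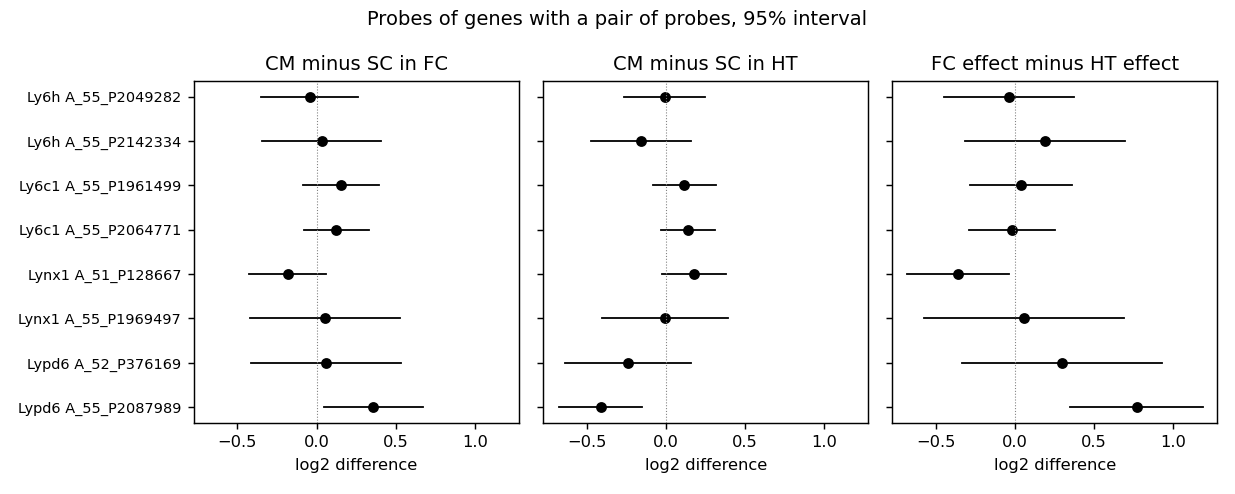
Log2 differences (horizontal axis) with 95% intervals for the 8 probes of Ly6h, Ly6c1, Lynx1 and Lypd6, for the diet effect in FC, the diet effect in HT and the first minus the second. The interval of Lypd6 probe A_55_P2087989 in the last panel, 0.35 to 1.19, and that of Lynx1 probe A_51_P128667, -0.68 to -0.04, leave out 0.

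The genes with the pattern most like Ly6g6e, by Pearson correlation over the 23 arrays, were Plekha2 (0.96), Tmem42 (0.95) and Cyth2 (0.94). After the 6 group means were subtracted the values were 0.83, 0.57 and 0.76. The regional means of Plekha2 were 8.37 (FC), 8.13 (ST) and 7.13 (HT), in the order of Ly6g6e on SC. Ly6e was most like Ppme1 (0.96), Fxyd7 (0.95) and Syn3 (0.94), which kept 0.93, 0.90 and 0.91 within groups. Ly6h was most like Pcsk4 (0.91), and Lypd6 most like Npas1 (0.83). For Lynx1 and Lypd1 the most alike rows were Raly (0.79) and Scn2b (0.78). Arrays share slides and tissue makeup, and these values describe likeness only.

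Of 34 other genes of the family, 23 passed the filter on low signal. Their mean signal was lower, between 6.35 and 6.92 on every array, against 11.15 to 11.84 for the 8 genes described here. In FC, Lypd5 was DE at 1.30 (SE 0.18, adjusted p = 7.28e-05 by limma). At an adjusted p under 0.05 a total of 4 were higher and 1 lower, beside 15.4% and 13.2% of all rows. The lower one was Ly6g6d, the neighbor of Ly6g6e in the class III region (-0.76, SE 0.19, adjusted p = 0.00471). In ST Lypd5 was DE in the opposite direction (-1.10, SE 0.20, adjusted p = 0.00484), and in HT none passed. Most DE rows lay in these directions, with 834 higher and 88 lower in FC and 1 higher and 188 lower in ST. The median differences of the 23 were 0.13 (FC), -0.13 (ST) and -0.09 (HT), beside -0.04, 0.03 and 0.01 over all rows. On SC the family list had 8 genes higher and 2 lower in HT than in FC, and 2 higher and 3 lower in HT than in ST. These are 10 and 5 of 23, near the 43.2% and 21.5% of all rows. Among them Plaur, the urokinase receptor that names the fold, was lower in HT than FC by 1.39 (log2 difference -1.39, SE 0.23, adjusted p = 6.72e-05), and Cd59a, an inhibitor of complement, was higher (1.37, SE 0.24, adjusted p = 0.000133).

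Of 16 genes for nicotinic receptor subunits, the partners of several family proteins, 14 passed the filter. None was DE between diets. At an adjusted p under 0.05 Chrnb2 was higher on CM in FC (0.31, SE 0.08, adjusted p = 0.00777) and lower in ST (-0.33, SE 0.09, adjusted p = 0.0280), and Chrng was higher in FC. These are 2 of 14 in FC and 1 of 14 in ST, beside 28.6% and 9.82% of all rows. Between HT and FC on SC, 4 subunits were higher and 1 lower in HT, 5 of 14 beside 43.2% of all rows. Chrna4 and Chrnb2, which together form the main high-affinity receptor of the brain, were higher in HT than in FC by 2.74 (SE 0.25, adjusted p = 8.82e-08) and 1.17 (SE 0.09, adjusted p = 1.81e-08). Chrna7 was lower (-0.92, SE 0.14, adjusted p = 2.92e-05). The thalamus list, higher on HT arrays in all 10 of its rows, moved with these, and its part was not tested.

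Of the 16 neighbors of Ly6g6e listed in the class III region, 12 passed the filter. Clic1, an intracellular chloride channel protein, was DE in FC (-1.16, SE 0.31, adjusted p = 0.00850 by limma), and 5 of the 12 were lower at an adjusted p under 0.05, with 0 higher, beside 13.2% of all rows lower and 15.4% higher. The 5 include Ly6g6d, also counted in the family list. The median of the 12 was -0.22, beside -0.04 over all rows. In ST and HT none passed. Around the chromosome 15 cluster, where 12 of 13 listed neighbors passed the filter in 13 rows, Arc, an activity-regulated gene of neurons, was DE in FC (1.44, SE 0.28, adjusted p = 0.000765). At an adjusted p under 0.05 that list had 2 rows higher and 2 lower in FC, 1 lower in ST and none in HT. Over all rows 28.6% passed in FC and 9.82% in ST. Of 8 genes that attach or remodel GPI anchors, 3 were lower in FC at an adjusted p under 0.05 (Pgap2, Pigu and Gpaa1), Pgap1 was higher in ST, and 0 were DE in any region. The 3 of 8 in FC, all lower, stand beside 28.6% of all rows in either direction and 13.2% lower. All of these FC values share the arrays and the slides of the Ly6g6e difference.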

How the data were processed

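The authors hybridized Cy3-labeled cRNA to 1-color Agilent arrays and deposited scanner intensities (Feature Extraction 10.7.3.1) and a log2 table made with limma, per the labels and the study's methods. Here the intensities (median spot signal and background) were corrected by normexp with offset 0, quantile normalized, filtered to probes above 1.1 times the 95th percentile of negative controls on at least 4 arrays, and averaged by transcript, which gave the deposited log2 table within 5e-09. limma 3.58.1 (R 4.3.3) fitted 6 group means over 23 arrays with array weights and mouse identity as random effect, as in the study's analysis code, and Benjamini-Hochberg adjustment over 31395 rows. Means ± SD are unweighted, while differences are weighted, so the 2 can differ. The mouse correlation was -0.04, and 3 of 22 pairs of arrays from 1 mouse had deviations correlated above 0.1. Tested on simulated arrays, the fit recovered 91% of 200 rows changed by 1.5 log2 units in FC. Those arrays had independent noise around the mean of each row, without slide, mouse, array quality or tissue differences. The recovery therefore cannot speak to such differences in the real FC arrays. The family genes and all lists were chosen with earlier results of these data known. The named genes are the 8 genes, list genes past a threshold, and the 3 rows most correlated with each gene. Every array is 1 mouse, and the number of arrays limits the precision.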

Additional observations from a re-analysis of the deposited data

Results flagged for a closer look

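A sample far from the other 3 of its group was found in 2 of the 40 groups of 4 arrays examined over the 8 genes, about the 1 in 20 that chance gives. Both were arrays of mouse O58. Ly6h read 13.90 on its ST array, the array with the highest choroid plexus list, against 14.38 for the nearest of the others. Lypd6 read 8.32 on its HT array, against 9.08 for the nearest.

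The diet effect of Ly6g6e in FC differed from that in ST by -1.98 and from that in HT by -1.92 on the log2 scale. Ly6g6e was selected on the FC difference that both values contain, so they are given as a description. With slide as a fixed block they were -2.63 (SE 1.11) and -2.54 (SE 1.31), and neither passed.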

How the results depend on the processing

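Of the counts of family genes called and the single gene values, most kept direction and side of the threshold: over all settings 1867 did, while 176 moved, 19 became weaker, 19 stronger and 3 reversed. The count for diet in FC was 1, and 0 with slide as a fixed block, slide as a random block or only FC arrays, where Ly6g6e gave -2.30, -2.01 and -1.98 (adjusted p = 0.530, 0.0195 and 0.0144 by limma). Leaving out 1 array at a time it gave -2.20 to -1.53. All of these FC fits of Ly6g6e hold values that chose it, so they are a description. For ST minus FC the count was 2, and 1 with slide as a random block or no array weights, 0 with only the arrays compared, and 0 to 4 leaving out 1 array (0 without the ST array of L52, 4 without that of L54). HT minus FC went from 2 to 4 on CM arrays, where 57.8% of all rows passed against 43.2% on SC and each region had its own slide. The interaction FC minus ST went from 1 to 0 with slide as either block, to 0 without the ST array of L56 (0 to 1 leaving out 1 array) and to 3 without the 5 arrays that stand apart, a setting chosen after seeing the data. FC minus HT went from 1 to 0 with slide as either block or no array weights, and to 2 with 1 value per probe. The reversed values were ST minus FC of Ly6g6e (0.38) and HT minus FC of Lypd6 (-0.33) on CM arrays, and HT minus ST of Ly6e (0.42) without the 5 arrays. The causes were not tested.

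With mouse number as a fixed replicate block, Ly6g6e gave -2.01 in FC, and each count of family genes called was the same. SC and CM arrays of one number come from different mice, and the deviations of 11 such pairs correlated from -0.32 to 0.14, so the numbers are names between diets.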
